A study of Mus musculus with 6 samples.

Results

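The 9 genes described here, Chd8, Chd2, Arid1b, Adnp, Kmt2a, Setd5, Ash1l, Kdm6b and Pogz, encode chromatin regulators that human genetics links to autism. They were taken by name from a count table of 55367 genes, and were chosen with earlier results of these data known. All 9 had enough counts to enter the 16976 genes tested. RNA-seq was carried out on polyA RNA of cortical neurons from C57BL/6J mice, removed at postnatal day 1 (P1) and cultured for 2 days in vitro, from wild-type (WT, n = 3) or Fmr1-KO (n = 3) pups. Fmr1-KO cells make no FMRP, an RNA-binding protein whose absence causes fragile X syndrome. According to the study's methods, the dissociated cortex was depleted of ACSA2+ astrocytes and of myelin before plating. The sex and number of pups behind each library are not given in the sources used here. The study describes the triplicate samples as independently derived, without saying what that covers. P-values therefore measure the spread between these libraries, which may be technical in part.

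Chromatin regulators of this kind set which parts of the genome a developing neuron can read. Remodellers of the CHD and BAF classes use ATP to slide or evict nucleosomes, histone methyltransferases add methyl groups that mark active or repressed genes depending on the residue, demethylases remove them, and readers such as HP1 hold heterochromatin closed. Heterozygous loss of many of these genes in humans causes intellectual disability or autism, so their dosage in the early cortex is of interest. Messenger RNAs for chromatin modifiers are also known among those that FMRP binds in mouse brain, a property that was not measured here.

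Total counts ran from 30348556 to 35126207 per library. Fmr1 mRNA fell by 49.4%, from 113 ± 4.50 to 57.4 ± 3.67 CPM (SD, n = 3 per genotype). CPM is the count of a gene scaled to library size by the TMM method. Markers of the cell types in the culture moved with genotype: 12 of 12 markers of proliferating cells were called higher in Fmr1-KO (summed level 628 to 665 CPM in WT and 1064 to 1119 CPM in Fmr1-KO), as were 9 of 12 of neural progenitors (2178 to 2193 against 2561 to 2685 CPM). Of the neuronal markers, 11 of 12 were called lower (5489 to 5624 against 4536 to 4748 CPM) and the other, Dcx, was called higher (log2 fold-change 0.08). Also called lower were 9 of 9 of the oligodendrocyte lineage (2295 to 2494 against 1319 to 1420 CPM), 8 of 9 of microglia (216 to 237 against 120 to 136 CPM) and 5 of 9 of astrocytes (5198 to 5315 against 4578 to 4957 CPM), with 2 astrocyte markers called higher. Gfap, an astrocyte intermediate filament, stood at 2649 ± 67.0 CPM in WT (SD, n = 3), so astrocyte RNA was present despite the depletion. Endothelial and mural markers summed to 82.8 to 89.8 CPM in WT and 85.0 to 91.3 CPM in Fmr1-KO, with 2 called higher and 3 lower of 7 tested. These are bulk libraries, in which a change in the number of cells of a type and a change in RNA per cell cannot be told apart, and the part of cell makeup in the results below was not tested.

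The genes were first examined for whether their reads could be counted. Adnp encodes a homeodomain zinc-finger protein that works with the remodeller CHD4 and HP1, and its mRNA is abundant in most tissues. In these data it had 19, 31 and 31 counts in WT replicates 1, 2 and 3 and 38, 34 and 28 counts in Fmr1-KO replicates 1, 2 and 3. The other 8 members each had between 4159 and 8357 counts in every library. In GENCODE M21 (GRCm38), Adnp lies on the minus strand at chr2:168180986-168207112. On the same strand, the annotated gene Gm20716 runs from the upstream gene Dpm1 into Adnp, at chr2:168180986-168230364. It shares 4393 of the 5350 exon bases of Adnp (82.1%) and 3324 of its 3324 coding bases. The counting method assigned reads to exons by gene name, and by default such counting discards a read that overlaps exons of more than 1 gene. Only 957 bases, all of them outside the coding sequence, are left in which a read can be assigned to Adnp.

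The coding part of the first coding exon of Adnp is shown to make the shared region visible (GRCm38, minus strand, chr2:168189282-168189389, from the GENCODE M21 transcript, with the start codon in capitals). Every base of it also belongs to an exon of Gm20716.
Adnp, first coding exon: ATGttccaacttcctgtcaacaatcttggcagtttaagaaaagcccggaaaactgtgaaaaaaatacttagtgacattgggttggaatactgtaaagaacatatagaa

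Gm20716 had 0 counts in all 6 libraries, and 0 of its 5288 exon bases lie outside Adnp and Dpm1, so no read can be assigned to it under the same rule. With this annotation and the default setting, the Adnp counts hold reads of the leading noncoding exons and are not a measure of its coding mRNA. Among 14528 protein-coding genes tested, 23 (0.158%) had at least 80% of their exon bases shared with another gene of the same strand. Chd2 shares 18.4% of its exon bases with the noncoding gene 1810026B05Rik, and the other 7 members share none. The coordinates come from an earlier GENCODE release than those named in the study's methods.

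**Figure D1:**
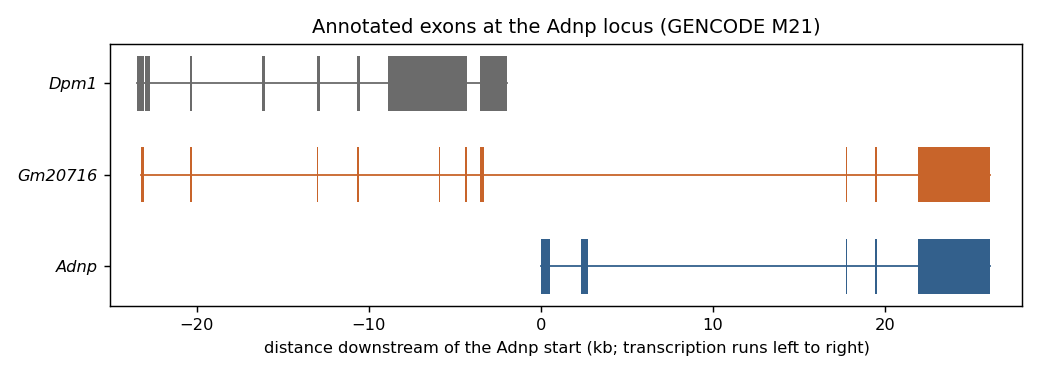
Annotated exons of Dpm1, Gm20716 and Adnp in GENCODE M21, plotted by distance in kb from the start of Adnp with transcription running left to right. Boxes are exons and lines are introns. The 3 exons of Adnp at the right, which hold all of its coding sequence, coincide with exons of Gm20716, and the exons near the start of Adnp do not.

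Across the 9 members, 4 were called higher in Fmr1-KO relative to WT and 0 were called lower at an adjusted P under 0.05 (edgeR quasi-likelihood test, Benjamini-Hochberg adjustment over all tested genes). Of all genes tested, 42.6% were called, 20.7% as higher and 21.9% as lower. The number lower was also 0 at an unadjusted P under 0.05 and by DESeq2, which called 2 members higher, against 15.3% of its tested genes. The median log2 fold-change of the members was 0.09, against 0.01 over all tested genes and -0.03 over the 1106 tested genes within the CPM range of the members other than Adnp, of which 55.0% were called, 20.6% higher and 34.4% lower. Without Fmr1-KO replicate 2 the median of the members was 0.06. All 3 Fmr1-KO libraries lay above all WT libraries for 5 members and below them for 1, and the ranges overlapped for 3. Over all tested genes the ranges failed to overlap for 51.7%, with 25.4% above and 26.3% below, so separated ranges were common in these data.

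**Figure D2:**
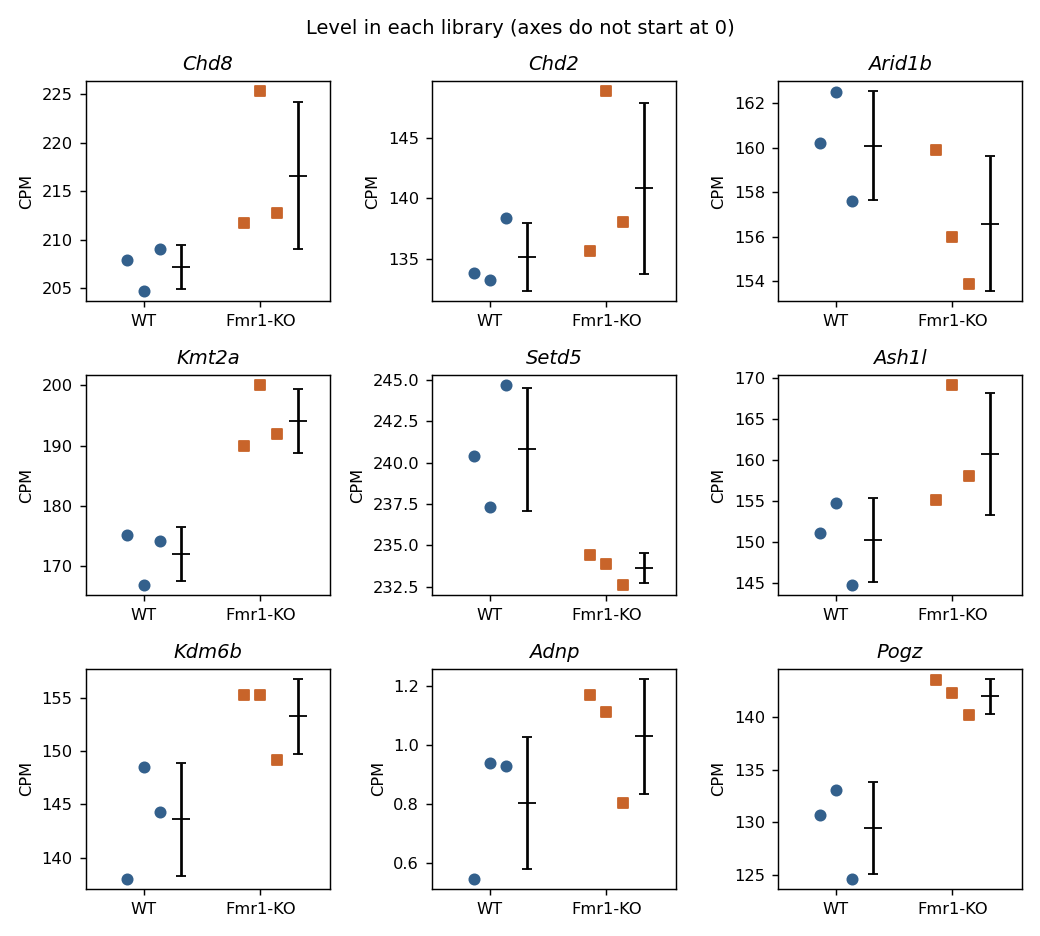
Level of each member in CPM in the 3 WT (circles) and 3 Fmr1-KO (squares) libraries, in the order of replicates 1 to 3 from left to right, with the mean ± SD beside them; each panel has its own axis, which does not start at 0. Kmt2a and Pogz show a clear gap between genotypes, Setd5 lies lower in Fmr1-KO within a narrow range, and Adnp is near 1 CPM throughout.

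Kmt2a showed the largest change of the 8 members that could be counted. It encodes MLL1, a methyltransferase of histone H3 lysine 4 (H3K4) that keeps active genes active, and lies at chr9:44803355-44881296 on the minus strand. Its level was 175, 167 and 174 CPM in WT replicates 1, 2 and 3 and 190, 200 and 192 CPM in Fmr1-KO replicates 1, 2 and 3. All 3 Fmr1-KO libraries were above the highest WT library. The mean rose by 12.8%, a log2 fold-change of 0.17 ± 0.03 (SE, edgeR adjusted P 0.000169), with a 95% interval from 7.64% to 18.2%. The call was made in each of the 6 fits that left out a library (largest edgeR adjusted P 0.00137) and by DESeq2 (adjusted P 1.18e-05).

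The promoters of Kmt2a and Pogz are shown because these were the only members whose call did not depend on any single library. They run from 250 bases before to 50 bases after the RefSeq start (GRCm38.p6), at chr9:44881240-44881539 on the minus strand and chr3:94837187-94837486 on the plus strand. Capitals mark matches on either strand to 6 searched motifs: the GC box GGGCGG, the CCAAT box, the TATA box TATAAA, the ETS motif CCGGAAG, the E-box CACGTG and the NRF1 motif. No matches overlapped a match to another motif in these windows.
Kmt2a: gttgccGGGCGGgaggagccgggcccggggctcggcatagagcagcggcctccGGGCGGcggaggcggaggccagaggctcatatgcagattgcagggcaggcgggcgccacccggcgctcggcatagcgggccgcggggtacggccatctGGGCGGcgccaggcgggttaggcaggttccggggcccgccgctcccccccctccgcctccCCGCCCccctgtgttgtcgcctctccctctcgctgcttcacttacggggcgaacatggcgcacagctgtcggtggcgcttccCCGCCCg
Pogz: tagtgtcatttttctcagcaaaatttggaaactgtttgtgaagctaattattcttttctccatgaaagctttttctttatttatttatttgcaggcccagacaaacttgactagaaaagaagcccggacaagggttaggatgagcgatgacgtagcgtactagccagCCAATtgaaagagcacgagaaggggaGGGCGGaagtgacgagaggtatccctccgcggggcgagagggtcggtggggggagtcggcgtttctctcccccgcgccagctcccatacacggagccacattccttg

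The Kmt2a promoter held 5 GC boxes and 36 CpG dinucleotides, while that of Pogz held 1 GC box, 1 CCAAT box and 16 CpG dinucleotides. The median over all 27025 promoters was 7 CpG dinucleotides, and 35.9% held a GC box and 37.9% a CCAAT box. The TATA box was found in 14.2% of all promoters, the ETS motif in 9.12%, the E-box in 7.24% and the NRF1 motif in 0.977%, and none of these letters occurred in either window. RefSeq promoters were found for 6 of the 9 members. Among the other 4, CpG counts ran from 1 in Setd5 to 42 in Arid1b, and the listed starts of both lie within the gene. The Pogz window ends upstream of the start of Pogz in GENCODE M21.

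The other SET-domain members were Ash1l and Setd5. Ash1l, at chr3:88950622-89079375 on the plus strand, encodes a methyltransferase of histone H3 lysine 36 (H3K36). Its level was 151, 155 and 145 CPM in WT replicates 1, 2 and 3 and 155, 169 and 158 CPM in Fmr1-KO. The lowest Fmr1-KO library (155.1 CPM) was barely above the highest WT library (154.8 CPM). Ash1l rose by 7.02% (log2 fold-change 0.10 ± 0.04 SE, 95% interval 1.51% to 12.8%, edgeR adjusted P 0.0360). That call was not made by DESeq2 (adjusted P 0.0575), nor when WT replicate 1 (log2 fold-change 0.10) was left out, nor WT replicate 3 (0.07), nor Fmr1-KO replicate 2 (0.06; edgeR adjusted P 0.191).

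Setd5, at chr6:113077365-113153435 on the plus strand, encodes a SET-domain protein related to KMT2E and was the most abundant member in CPM. Its level was 240, 237 and 245 CPM in WT and 234, 234 and 233 CPM in Fmr1-KO replicates 1, 2 and 3. The 3 Fmr1-KO libraries lay below the 3 WT libraries, with an SD of 0.911 CPM among them. The log2 fold-change was -0.04 ± 0.03 (SE, edgeR adjusted P 0.239) and did not pass the threshold, with a 95% interval from -6.95% to 1.15%.

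Kdm6b encodes JMJD3, a demethylase that removes the repressive mark on histone H3 lysine 27 (H3K27), and lies at chr11:69398508-69413675 on the minus strand. Its level was 138, 149 and 144 CPM in WT replicates 1, 2 and 3 and 155, 155 and 149 CPM in Fmr1-KO. The groups were separated by a small gap, from 148.5 CPM in the highest WT library to 149.2 CPM in the lowest Fmr1-KO library. Kdm6b rose by 6.73% (log2 fold-change 0.09 ± 0.03 SE, 95% interval 1.6% to 12.1%, edgeR adjusted P 0.0310). By DESeq2 the adjusted P was 0.0521, and of the fits that left out a library only those without WT replicate 2 and without Fmr1-KO replicate 3 kept the call. Without WT replicate 1 the log2 fold-change was 0.07 (edgeR adjusted P 0.197), without WT replicate 3 it was 0.10, and without Fmr1-KO replicate 1 or Fmr1-KO replicate 2 it was 0.08.

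Neither CHD remodeller among the members passed the threshold. Chd8, at chr14:52198151-52257780 on the minus strand, encodes a chromodomain helicase that also binds beta-catenin, and is among the genes most often mutated in autism. Its level was 208, 205 and 209 CPM in WT and 212, 225 and 213 CPM in Fmr1-KO replicates 1, 2 and 3. The Fmr1-KO libraries lay above the WT libraries, with replicate 2 the highest. The log2 fold-change was 0.06 ± 0.03 (SE, 95% interval -0.169% to 9.39%, edgeR adjusted P 0.115) and was 0.03 without Fmr1-KO replicate 2. Scaled by library totals alone, Chd8 passed the threshold (0.09, edgeR adjusted P 0.0241).

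Chd2, at chr7:73426638-73541830 on the minus strand, encodes a remodeller whose loss causes childhood epilepsy. Its level was 134, 133 and 138 CPM in WT and 136, 149 and 138 CPM in Fmr1-KO replicates 1, 2 and 3. The groups overlapped, and only Fmr1-KO replicate 2 stood above the WT range. The log2 fold-change was 0.06 ± 0.04 (SE, 95% interval -1.11% to 9.83%, edgeR adjusted P 0.2) and was 0.02 without Fmr1-KO replicate 2. 1810026B05Rik, the noncoding gene upstream on the same strand that is known as Chaserr and restrains Chd2 expression, was looked up after these values had been seen. It stood at 28.2 ± 0.248 CPM in WT and 29.6 ± 0.245 CPM in Fmr1-KO (SD, n = 3, log2 fold-change 0.07, edgeR adjusted P 0.262).

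Arid1b encodes a DNA-binding subunit of the BAF complex that is exclusive with its paralog ARID1A, and lies at chr17:4994332-5347656 on the plus strand. Its level was 160, 163 and 158 CPM in WT and 160, 156 and 154 CPM in Fmr1-KO replicates 1, 2 and 3. The groups overlapped. The log2 fold-change was -0.03 ± 0.03 (SE, edgeR adjusted P 0.438), with a 95% interval from -6.50% to 2.29%.

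Pogz, at chr3:94837567-94882326 on the plus strand, encodes a zinc-finger protein with a transposase-derived domain that binds HP1. Its level was 131, 133 and 125 CPM in WT and 144, 142 and 140 CPM in Fmr1-KO replicates 1, 2 and 3. All 3 Fmr1-KO libraries were above the WT libraries and close to each other. Pogz rose by 9.64% (log2 fold-change 0.13 ± 0.03 SE, 95% interval 4.51% to 15.0%, edgeR adjusted P 0.00264). The call was made in each of the 6 fits without a library (largest edgeR adjusted P 0.0269) and by DESeq2 (adjusted P 0.00265). The noncoding reads assigned to Adnp gave a log2 fold-change of 0.35 ± 0.25 (SE, edgeR adjusted P 0.275), with a 95% interval from -11.0% to 82.7%, and 0.13 without WT replicate 1.

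All differences were small. When a fold change above 1.2 was required, 0 members were called by edgeR, and 0 at an unadjusted P under 0.05, against 13.1% of all tested genes (5.2% higher and 7.89% lower). For the 8 members other than Adnp the 95% intervals ended between -6.95% and 18.2%, inside a 1.2-fold change. The number called higher was 2 when either WT replicate 1, or WT replicate 3, or replicate 2 of Fmr1-KO was left out. Fmr1-KO replicate 2 held the highest Fmr1-KO value for 4 of the 9 members (Chd8, Chd2, Kmt2a and Ash1l). The share over all tested genes was not computed, and with 3 Fmr1-KO libraries nothing is read from this count. In that library the median of 1454 protein-coding genes with at least 10000 exon bases was 0.05 above the WT mean on the log2 scale, against -0.001 and 0.008 in Fmr1-KO replicates 1 and 3. Its part in the results was not tested.

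**Figure D3:**
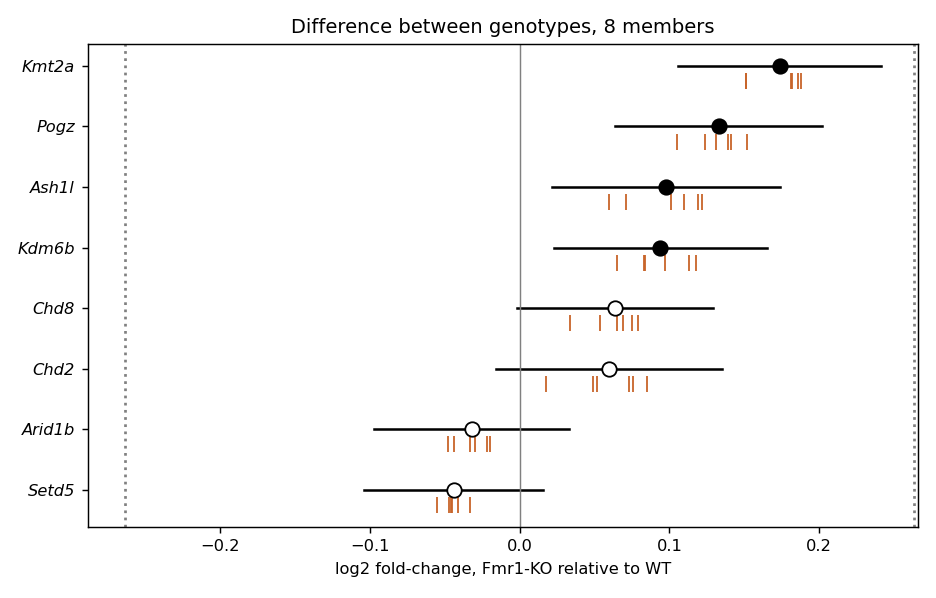
Log2 fold-change of the 8 members other than Adnp, Fmr1-KO relative to WT, with 95% intervals (lines), filled circles for an edgeR adjusted P under 0.05 and open circles otherwise; small ticks are the values when each library in turn was left out, and dotted lines mark a 1.2-fold change. Kmt2a (0.17) and Pogz (0.13) lie farthest from 0, Arid1b and Setd5 lie slightly below it, and no interval reaches a dotted line.

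Each member other than Pogz was then set against a gene of its family in the same library, a ratio that does not depend on library scaling. With 3 libraries against 3 the exact permutation test cannot give a 2-sided P below 0.1, so none of the 8 pairs could pass the threshold. The groups did not overlap for 4 pairs. The log2 ratio of Chd8 to Chd7, a paralog active in neural progenitors, was 0.91 ± 0.004 in WT and 0.62 ± 0.03 in Fmr1-KO (SD, n = 3, exact permutation P 0.1, adjusted over the pairs 0.2). Chd7 itself rose from 111 ± 1.4 to 141 ± 6.84 CPM (log2 fold-change 0.35, edgeR adjusted P 7.12e-08). The log2 ratio of Kdm6b to Kdm6a, the X-linked H3K27 demethylase, was 1.61 ± 0.07 in WT and 1.35 ± 0.07 in Fmr1-KO, with the same P values (exact permutation test, n = 3 per genotype).

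Kdm6a rose by 28.1%, from 47.0 ± 1.29 to 60.3 ± 3.81 CPM (SD, n = 3, edgeR adjusted P 1.61e-06). It is expressed from both X chromosomes in females. Xist, the RNA of the inactive X chromosome, stood at 298 to 312 CPM in WT and 825 to 1017 CPM in Fmr1-KO, and the Y-linked gene Eif2s3y at 37.6 to 41.2 CPM in WT and 27.3 to 31.8 CPM in Fmr1-KO. Of the other Y-linked genes looked at, Ddx3y (log2 fold-change -0.28) and Kdm5d (-0.15) were called lower, and Uty (-0.20, edgeR adjusted P 0.0679) was not called and overlapped between genotypes. Xist and Y-linked RNA were present in every library, and the part of sex in the Kdm6a value was not tested.

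For Kmt2a against Kmt2b, the MLL paralog nearest in sequence, the log2 ratio was 0.57 ± 0.07 in WT and 0.73 ± 0.04 in Fmr1-KO (SD), and Kmt2b alone had a log2 fold-change of 0.02 (edgeR adjusted P 0.744). For Setd5 against Kmt2e it was 0.11 ± 0.05 in WT and -0.05 ± 0.06 in Fmr1-KO (SD), and Kmt2e rose by 8.56% (edgeR adjusted P 0.00620). Both ratios had an exact permutation P of 0.1 (n = 3 per genotype). The ratios of Arid1b to Arid1a (difference -0.09), Ash1l to Nsd1 (0.10), Chd2 to Chd1 (-0.02) and Adnp to Adnp2 (0.43, for the noncoding Adnp reads) overlapped between genotypes, with exact permutation P of 0.2, 0.2, 0.8 and 0.3. The difference for Chd2 changed sign without WT replicate 3, to 0.01, and that for Adnp was 0.20 without WT replicate 1.

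**Figure D4:**
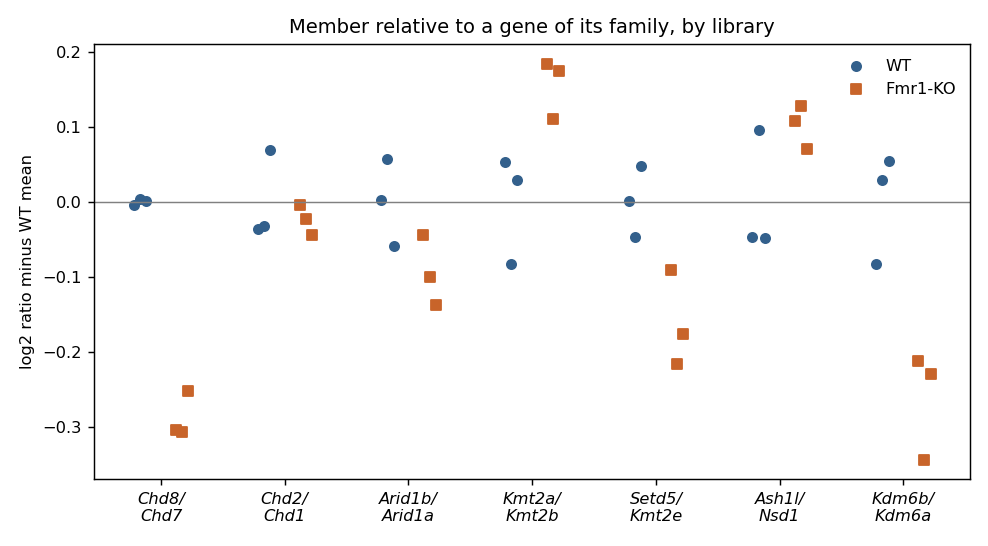
Log2 ratio of members to a gene of their family, by library, after subtracting the WT mean of that pair. Adnp and Pogz are not drawn. Circles are WT and squares Fmr1-KO, 3 libraries each. The Fmr1-KO points lie below WT for Chd8/Chd7, Setd5/Kmt2e and Kdm6b/Kdm6a and above WT for Kmt2a/Kmt2b, and they overlap WT for the other 3 pairs drawn.

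Levels of the 8 counted members were also set in order per kilobase of exon that is not shared with another gene. This length takes all annotated isoforms together, from 2 transcripts for Kdm6b to 18 for Chd2, whether or not they are expressed here. The order therefore depends on the annotation as well as on RNA level, and the part of each was not tested. In WT, Kdm6b was highest at 20.7 ± 0.758 CPM per kb (SD, n = 3), followed by Pogz with libraries from 13.5 to 14.4, Setd5 at 13.1 ± 0.201, Arid1b at 12.7 ± 0.193, Chd8 at 12.5 ± 0.138, Chd2 at 11.6 ± 0.243, Kmt2a at 10.3 ± 0.273 and Ash1l at 10.1 ± 0.345. In this order the WT ranges of Setd5 and Arid1b overlapped, as did those of Arid1b and Chd8 and those of Kmt2a and Ash1l. In Fmr1-KO, Kmt2a stood at 11.6 ± 0.322 and Ash1l at 10.8 ± 0.504 CPM per kb (SD, n = 3). In mean CPM the 8 members stood between percentiles 89.1 and 95.6 of all tested genes, while the Adnp reads stood at percentile 13.1.

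Most members had a long annotated exon sequence, a property the choice of genes did not use. Their median exon length, counted over all isoforms together, was 14300 bases and their median gene span 76.1 kb, against 4505 bases and 25.5 kb for protein-coding tested genes. Exon length was above the 94th percentile for 6 members (Chd8, Chd2, Arid1b, Kmt2a, Setd5 and Ash1l), while Pogz (percentile 87.4), Kdm6b (75.4) and Adnp (60.4) were nearer to the rest. Genes with long exon sequence in general showed a small shift: the 1454 protein-coding genes with at least 10000 exon bases had a median log2 fold-change of 0.02, with 29.7% called higher and 26.7% lower. Of the 9 members, 0 were on the study's list of targets of nonsense-mediated mRNA decay (NMD) in Neuro-2a neuroblastoma cells, against 17 of the 144 related genes described next, and with so few members nothing is read from the 0.

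Related genes were taken from 8 lists of chromatin regulators without the members. Of 144 genes, 63 (43.8%) were called higher and 17 (11.8%) lower, against 20.7% and 21.9% of all tested genes, and the median log2 fold-change was 0.08.

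Of the other 7 CHD remodellers, 3 were called higher and 1 lower. Chd7 and Chd6 rose, with log2 fold-changes of 0.35 and 0.20, while Chd5, a neuron-enriched remodeller, fell from 169 ± 4.24 to 128 ± 4.85 CPM (SD, n = 3, log2 fold-change -0.40, edgeR adjusted P 5.67e-09). Of 27 BAF subunits, 14 were called higher and 2 lower. Actl6a, an actin-related subunit, rose from 54.7 ± 2.57 to 66.7 ± 1.23 CPM (log2 fold-change 0.29, edgeR adjusted P 6.58e-06). Dpf3 also rose (0.31), and Dpf1 (-0.17) and Bcl7c (-0.15) fell. Each of these genes was called in all 6 fits that left out a library.

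Among 18 H3K4 methyltransferases and their partners, 5 were called higher and 0 lower (0 also by edgeR at an unadjusted P under 0.05, and by DESeq2). Rbbp5, a core subunit of the MLL complexes, had a log2 fold-change of 0.14 and Kmt2e one of 0.12. The number higher was 3 without WT replicate 3 and 9 with scaling by library totals alone. A list for H3K36 and H4K20 methylation held 11 genes, not all of which encode methyltransferases of these residues. Of the 11, 3 were called higher, with Nsd2 at 0.16 and Setd2 at 0.14. Another 3 were called lower, with Smyd2 at -0.32 and Setd3 at -0.13. Without WT replicate 1 the number higher was 1, and Setd2 was not called without WT replicate 1 or Fmr1-KO replicate 2 (log2 fold-change 0.08).

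Of 12 genes of PRC2, the complex that methylates H3K27, and its opposing demethylase, 6 were called higher and 1 lower. Ezh2, its catalytic subunit, rose from 90.4 ± 2.84 to 128 ± 5.42 CPM (log2 fold-change 0.50, edgeR adjusted P 6.27e-10), and Phf19, an accessory subunit, had a log2 fold-change of 0.51. Ezh2 is abundant in dividing progenitors, and the 12 proliferation markers given above were also called higher, whose part in these values was not tested. Jarid2 was lower (-0.12), a call that was not made when WT replicate 3 was left out, nor without replicate 1 or 3 of Fmr1-KO.

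Among 16 genes for HP1, the NuRD complex and other partners of ADNP and POGZ, 6 were called higher and 1 lower. Cbx1, which encodes HP1 beta, rose from 88.6 ± 4.8 to 110 ± 1.27 CPM (log2 fold-change 0.31, edgeR adjusted P 8.10e-07). Atrx (0.29) and Mta3 (-0.14) passed the threshold with all libraries but not by DESeq2 (adjusted P 0.282 and 0.0571). Both calls were lost when WT replicate 1 was left out, as well as WT replicate 3 or replicate 2 of Fmr1-KO. That of Mta3 was also lost without Fmr1-KO replicate 3. The log2 fold-change of Atrx was 0.16 without replicate 2 of Fmr1-KO, and leaving out replicate 2 of WT gave 0.45. In this list the number higher was 3 by DESeq2, and also when either WT replicate 1, or WT replicate 3, or replicate 3 of Fmr1-KO was left out.

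Of 16 genes for demethylases of H3K4, H3K9 and H3K36 and a partner protein, 10 were called higher and 0 lower. The number lower was also 0 by edgeR at an unadjusted P under 0.05, and by DESeq2. Jmjd1c and Kdm3a had the largest log2 fold-changes, 0.26 and 0.25. The 10 include the X-linked genes Kdm5c (0.12, edgeR adjusted P 0.00430) and Phf8 (0.125, edgeR adjusted P 0.0216). Atrx, named above, is also X-linked. Beside these genes stand the Xist and Y-linked values given above, whose part was not tested. Of 37 other autism-linked nuclear regulators, 16 were called higher and 9 lower. Zbtb20, a repressor in neural progenitors and glia, rose from 527 ± 39.6 to 783 ± 65.2 CPM (log2 fold-change 0.57, edgeR adjusted P 5.62e-09), and Foxp2 had a log2 fold-change of 0.38. Nr4a2, a nuclear receptor of deep-layer neurons and an activity-responsive gene, fell from 8.87 ± 0.502 to 4.42 ± 0.247 CPM (SD, n = 3, log2 fold-change -1.004, edgeR adjusted P 1.93e-08).

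**Figure D5:**
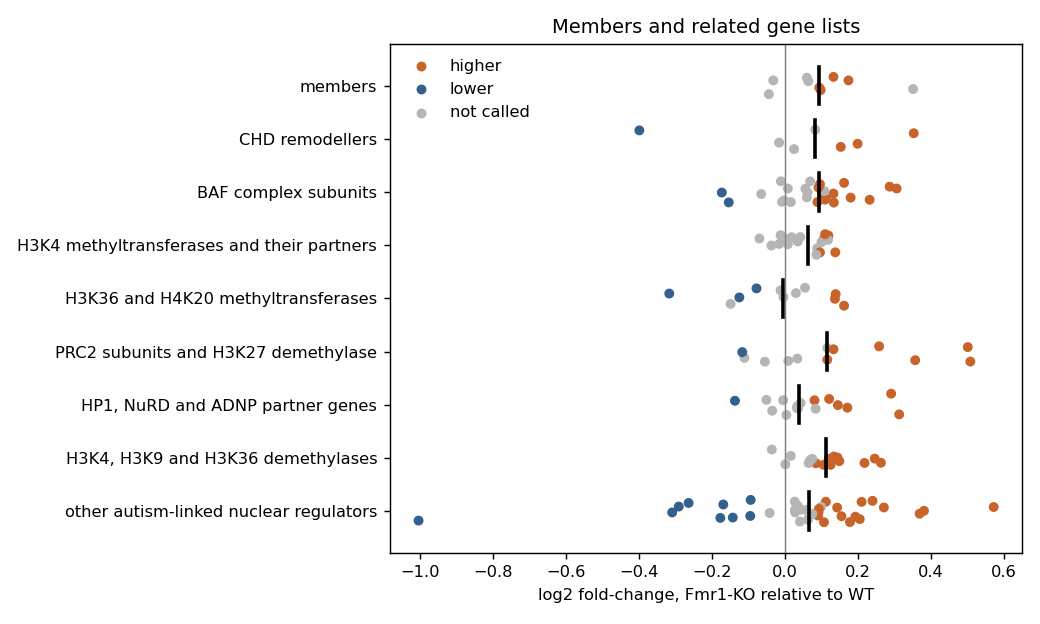
Log2 fold-change of each member and of each gene in 8 related lists, Fmr1-KO relative to WT; points are genes, coloured by their call at an edgeR adjusted P under 0.05, and black bars are list medians. The called members lie between 0.09 and 0.17, close to the bulk of the related genes, while Chd5, Ezh2, Phf19, Zbtb20 and Nr4a2 lie far outside that range.

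Deviations of single libraries from their genotype mean were compared between members as a description, over 6 libraries that share preparation and depth. Pearson's r ran from -0.82 (Setd5 and Pogz) to 0.97 (Chd8 and Chd2) over the 36 pairs. Adnp, with its few reads, had an r of 0.95 with Kdm6b. Over 6 libraries with the genotype means removed, values this far apart can come from noise, so nothing is read from them. The mean of the centred log2 CPM of the 9 members was -0.11, -0.02 and -0.03 in WT and 0.06, 0.10 and -0.01 in Fmr1-KO replicates 1, 2 and 3. Without Adnp it was -0.04, -0.03 and -0.04 in WT and 0.02, 0.07 and 0.01 in Fmr1-KO. Of 10755 other genes with at least 10 CPM, Bcas2, Ankrd24 and Pak1ip1 followed the mean of the 9 most closely over the 6 libraries (Pearson's r 0.993, 0.992 and 0.990). None of these 3 was among the closest to the mean without Adnp, which were CT010467.1, Rbpj and Tmem138 (0.996, 0.992 and 0.992), so the order depended on the few Adnp reads. All were picked as the highest of 10755 values of r over 6 libraries. Values this high can come from the picking alone.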

How the data were processed

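The authors deposited raw counts per gene name for 6 libraries, 3 WT and 3 Fmr1-KO, grouped here by GEO's labels. Per the study's methods, single-end reads of 100 bases were trimmed with FastP, aligned with STAR to GRCm38.p6 and counted over exons with featureCounts in reverse-stranded mode. The submitters' processing notes list STAR 2.7.6a and Subread 2.0.1. Replicates were not pooled.

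Counts were tested with edgeR 4.0.16 in R 4.3.3 (filterByExpr, TMM, glmQLFit, glmQLFTest, 2-sided, genotype as the only term). P-values were adjusted by Benjamini-Hochberg over 16976 genes, with 0.05 as the threshold for a call. The SE was the log2 fold-change divided by the square root of F. CPM are TMM-scaled. Ratios were compared by exact permutation (scipy 1.17.1). The test was also run on simulated data, with changes larger than those of the members, so that run does not bear on calls of their size. Exon lengths came from GENCODE M21, which held 98.6% of tested names.

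The members and gene lists were chosen with earlier results of these data known. Genes named were the members, Fmr1, the 8 relatives used in ratios, in each list the 2 called genes with the largest log2 fold-change in each direction and a mean of at least 5 CPM, and the 3 genes of at least 10 CPM most correlated with the members' mean. Others (the overlapping genes, the X- and Y-linked genes, Gfap and Dcx) were named after their values were seen. One gene that this rule selects is not reported here. Alternatives were DESeq2 1.42.0, other scalings and filters, a replicate block, each library left out, the 20 most abundant genes removed, and a minimum fold change of 1.2. Replicate numbers did not pair the libraries (libraries with the same number deviated from their means with correlations of -0.0289, 0.0323 and -0.0147). Chi-square per degree of freedom was at least 2.24 for each pair of replicates, above counting noise. Isoforms were not analysed here.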

Additional observations from a re-analysis of the deposited data

How the results depend on the processing

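No log2 fold-change of a member changed sign under the alternatives, and of 134 recomputed values 120 kept their side of the threshold, 13 lost it and 1 gained it. Under DESeq2 the calls of Ash1l (0.095) and Kdm6b (0.091) were lost and 2 members were called higher, a shift whose cause was not tested. Under the test against a 1.2-fold change, stricter by construction, 0 members were called (Kmt2a 0.174, Pogz 0.133, Ash1l 0.098 and Kdm6b 0.094 on the log2 scale), and 883 genes were higher and 1340 lower. With library totals alone Chd8 gained a call (0.091), which made 5 members higher. The log2 fold-changes of all members rose in that setting. That of Arid1b moved from -0.032 to -0.004 and that of Setd5 from -0.044 to -0.016. Leaving out each library gave log2 fold-changes from 0.060 to 0.122 for Ash1l and from 0.065 to 0.118 for Kdm6b, 2 to 4 members called higher, and a difference in the Chd2 to Chd1 ratio from -0.042 to 0.011.

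With a replicate block, 4 members were called higher and 0 lower (Chd8 0.063, Kmt2a 0.174), and 4 also without Adnp, an alternative added after the data were seen. The block changed no call of a member. Adnp did not pass the stricter filter and has no value there. With 19 to 38 assigned counts a library, Adnp had a 95% interval from -11.0% to 82.7%.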
